A study of Heterocephalus glaber with 3 samples.

Results

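ALK was followed as a single gene, matched by its symbol (ENSHGLG00000009536), among 23189 features. The counts come from lung tumours grown in 3 naked mole-rats, long-lived African rodents of the species Heterocephalus glaber. All 3 animals belong to 1 group. Each was infected with an adenovirus carrying CRISPR reagents that invert the segment between Eml4 and Alk and disrupt Rb, among other edits, and lungs were taken 15 weeks later. Tumours were cut away from normal tissue by hand and dissociated, and each animal gave 1 droplet library (10x Genomics 3' chemistry), called replicates 1 to 3. Every animal was given these reagents and the labels name no untreated animal, so ALK was compared between cells of the same animals. Counts at transcript 3' ends do not separate the fusion transcript from the native one.

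ALK encodes a receptor tyrosine kinase that is active mainly in the developing nervous system and is barely expressed in adult lung. Its ligands are ALKAL1 and ALKAL2, and LTK is its closest relative among receptors. In a subset of human lung adenocarcinomas an inversion joins the 5' part of EML4 to the ALK kinase domain. The fusion protein pairs with itself through its EML4 part, signals without ligand through the MAPK, PI3K and STAT3 pathways, and is the target of ALK inhibitors.

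The matrices held 9500, 10000 and 10000 cell barcodes with 76093932, 86575320 and 91949365 unique molecular identifiers (UMIs, each standing for 1 captured transcript). After filtering 7929, 8891 and 7779 cells remained. Pairs of libraries shared 24, 21 and 31 barcodes, and 0 of these had equal totals. Lung epithelium was present: the surfactant gene SFTPC reached at least 1% of the UMIs of a cell in 37, 38 and 110 cells. UMIs of abundant genes were spread over cells of every type. TYROBP, a myeloid adaptor gene, was seen in 90.3%, 96.7% and 97.4% of the cells with 2 or more ALK UMIs and at 114, 258 and 112 CPM (the usual depth-scaled count, from summed UMIs of a gene over summed UMIs of the same cells), against 1815, 3126 and 3090 CPM in cells of equal depth with 0 ALK UMIs. Lineages were therefore also called with a stricter rule, and both calls are given.

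ALK was sparse. The retained cells held 226, 898 and 256 ALK UMIs in replicates 1, 2 and 3, which is 3.30, 11.1 and 3.23 CPM. Replicate 2 thus held most of the 1380 ALK UMIs. At least 1 ALK UMI was seen in 829 of 24599 cells, and 263 cells carried 2 or more: 33, 192 and 38 in the 3 animals. The highest count in a cell was 4, 13 and 6. In replicate 2 the cells with 2 or more held 71.5% of its ALK UMIs, against 33.6% and 37.5% in replicates 1 and 3. Replicate 2 stood apart in its ALK level, so values are given by animal.

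Cells were assigned to a lineage from marker genes that leave out ALK: the lineage with the largest share of its markers present, with at least 2 markers. In mesenchymal cells, marked by collagens and other matrix genes, ALK was at 9.23, 32.3 and 12.2 CPM in replicates 1, 2 and 3 (mean 17.9 ± 12.5, SD, n = 3). In epithelial cells, marked by EPCAM, cadherin and claudin genes, it was at 6.68, 25.6 and 13.1 CPM (15.1 ± 9.62). In each animal both stood above each of the 3 immune lineages. T and NK cells were at 1.13, 3.14 and 0.735 CPM, and B and plasma cells at 0.404, 2.77 and 0.259 CPM. Myeloid cells, the most numerous with 11079 of the retained cells, were at 0.823 and 0.716 CPM in replicates 1 and 3 and at 6.01 CPM in replicate 2. Mesenchymal cells made up 11.2% of the cells and held 52.5% of the ALK UMIs.

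The mesenchymal against immune difference was 3.09 ± 0.29 (log2, SE; n = 3 animals), with an edgeR quasi-likelihood adjusted p of 2.02e-07, and was positive in 3 of 3 animals. The epithelial against immune difference was 2.79 ± 0.33 (edgeR adjusted p = 3.64e-06). As background, 30.3% and 28.3% of the 14085 genes tested were called higher in these contrasts, and 29.5% and 26.3% lower, so ALK shares its direction with many genes. Mesenchymal and epithelial cells did not differ beyond the error (0.31 ± 0.36, edgeR adjusted p = 0.604), and their order was opposite in replicate 3. Among the immune lineages, T and NK cells against B and plasma cells gave -0.45 ± 0.58 (edgeR adjusted p = 0.632), with a sign opposite to that of the plain CPM. Myeloid against T and NK cells gave 0.52 ± 0.46 (edgeR adjusted p = 0.385). The 8 contrasts were fitted together, with animal as block. In the contrasts that ALK did not pass, genes called higher and lower were 10.6% and 13.2% for mesenchymal against epithelial cells, 24.4% and 20.9% for myeloid against T and NK cells, and 12.8% and 14.9% for T and NK against B and plasma cells.

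Endothelial cells could not be placed in this order. They were few (208 cells) and held 10 ALK UMIs in all: 0, 4 and 6 in the 3 animals, or 0, 5.73 and 15.0 CPM. The 6 UMIs of replicate 3 came from 1 cell. In the contrasts against immune, epithelial and myeloid cells, 16.8% and 19.0%, 13.7% and 10.9% (epithelial over endothelial), and 15.5% and 19.7% of genes were called higher and lower. ALK was called in none of these 3: epithelial against endothelial cells gave 1.51 ± 0.68 and endothelial against myeloid cells 1.07 ± 0.77 (edgeR adjusted p = 0.120 and 0.313). Both calls changed with the setting. Epithelial against endothelial cells passed with the stricter lineage rule (1.46, edgeR adjusted p = 0.0347), at 5000 to 40000 UMIs (3.26, edgeR adjusted p = 0.00640) and without replicate 3 (2.49, edgeR adjusted p = 0.0132). Endothelial against myeloid cells passed with the stricter rule (2.38, edgeR adjusted p = 0.00279) and without replicate 2 (2.82, edgeR adjusted p = 0.0479), and was -0.46 without replicate 3. Against immune cells the difference was 1.27 ± 0.77 (edgeR adjusted p = 0.225), and it was -0.15 without replicate 3. With the stricter lineage rule the 19 endothelial ALK UMIs all came from replicate 2 and the difference was 1.93 (edgeR adjusted p = 0.00776).

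**Figure D1:**
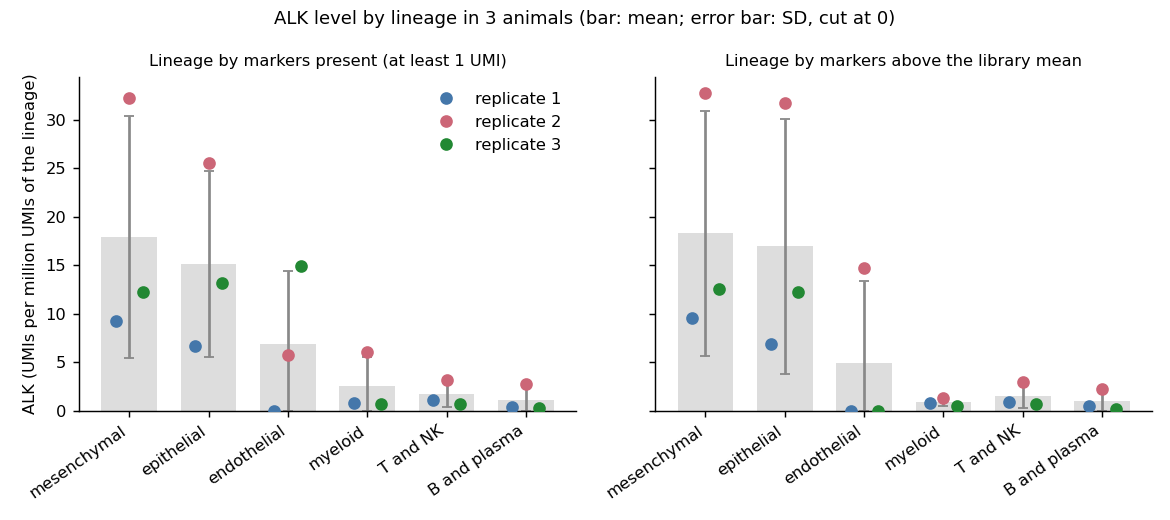
ALK in CPM of each lineage, with lineages called from markers present (left) and from markers above the library mean (right). Each point is 1 of 3 animals, bars are means and error bars SDs; mesenchymal and epithelial cells stand above the immune lineages in every animal, and the myeloid value of replicate 2 falls from 6.01 to 1.29 CPM under the stricter rule.

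The myeloid value of replicate 2 rested on how lineages were called. In that library 47 cells with 2 or more ALK UMIs were called myeloid, against 0 in replicates 1 and 3. Their summed myeloid markers reached 12.8 UMIs per 10000, compared with 84.6 in 235 myeloid cells of the same library with 0 ALK UMIs and the nearest totals. Their mesenchymal markers were at 24.9 against 1.85 per 10000, basal keratin markers at 46.1 against 2.22, and bone matrix markers at 8.55 against 0.109. Median totals were 38816 and 33520 UMIs. The stricter rule counts a marker only where its UMIs exceed what the average of the library would give at that depth. By this rule 0 of the 47 cells stayed myeloid, 14 were mesenchymal and 31 epithelial. Myeloid ALK was then at 0.760, 1.29 and 0.522 CPM, and 0 of 9708 myeloid cells had 2 or more ALK UMIs. Mesenchymal and epithelial levels became 18.3 ± 12.6 and 17 ± 13.1 CPM (SD, n = 3), and their differences from immune cells 3.65 and 3.39 (log2), both called, where 30.9% and 28.3% of genes were called higher.

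Lineages differed in depth, so detection was also expressed at a fixed depth, as the share of cells expected to show ALK if each cell had 2000 UMIs. It was 1.35%, 4.37% and 1.64% in mesenchymal cells and 0.695%, 2.68% and 1.97% in epithelial cells. Immune shares were 0.0487% to 0.565%. B and plasma cells gave 0.131%, 0.518% and 0.0487%, and in each animal mesenchymal and epithelial shares were above theirs. Whether the ALK UMIs of B and plasma cells are background was not tested. Without thinning, 12.2%, 23.5% and 11.5% of mesenchymal cells (median 12809, 9797 and 8591 UMIs) showed ALK, against 0.397%, 1.59% and 0.316% of B and plasma cells (median 8089, 2491 and 12059 UMIs). At 10000 UMIs per cell the mesenchymal shares were 7.93%, 24.4% and 11.1% and those of B and plasma cells 0.203%, 1.64% and 0.20%. These are shares of deeper cells only.

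The level per UMI was also higher in deep cells. Over all cells, ALK was at 1.40, 4.62 and 1.39 CPM in cells with 2000 to 5000 UMIs and at 11.5, 35.2 and 15.4 CPM in those with at least 40000. Since CPM already divides by the total, equal levels would give equal values. Within mesenchymal cells the same bins gave 1.95, 15.7 and 4.40 CPM against 13.2, 48.3 and 18.5 CPM, from 1, 9 and 4 UMIs in the shallow cells. Epithelial cells of 2000 to 5000 UMIs were at 0, 9.59 and 9.65 CPM, from 0, 2 and 4 UMIs, and those from 40000 UMIs at 12.1, 32.8 and 13.8 CPM, in 15, 11 and 9 cells. In the bins between, they went from 1.69, 5.68 and 5.15 CPM at 5000 to 10000 UMIs to 7.21, 38.7 and 21.6 CPM at 20000 to 40000 UMIs. In B and plasma cells no bin with at least 20 cells above 5000 UMIs exceeded 1.67 CPM. The part of depth itself, apart from the kinds of cell that are deep, was not tested.

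**Figure D2:**
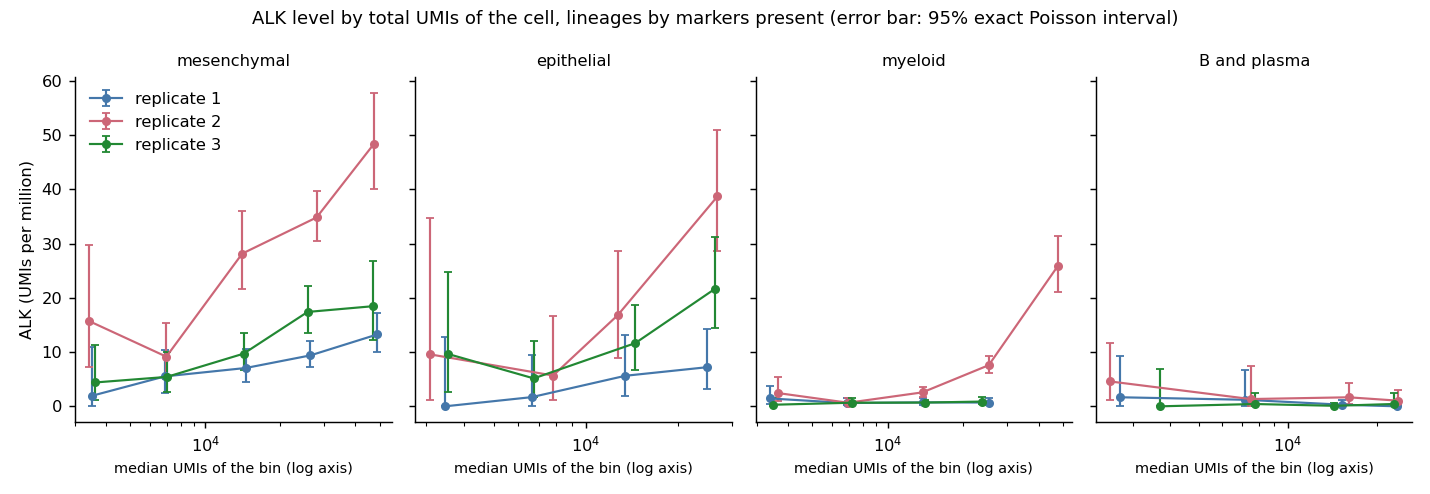
ALK in CPM against the median total UMIs of depth bins from 2000 UMIs (log axis) in 4 lineages called from markers present. Points are animals, bins under 20 cells are left out, and error bars are 95% exact Poisson intervals that cover counting error only; mesenchymal and epithelial levels at 20000 to 40000 UMIs lie above those at 5000 to 10000 UMIs in 3 of 3 animals, and B and plasma cells stay at or below 4.58 CPM.

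Within the mesenchymal lineage ALK differed between cells carrying different marker lists. Cells with at least 2 of IGF2, MMP3, MMP10 and MMP13 (a fetal growth factor and matrix metalloproteinases) and without the resident list were at 10.4, 40.8 and 18.7 CPM. Cells with at least 2 of MFAP4, FIBIN, SCARA5, NPNT and INMT, genes of resident lung fibroblasts, and without the first set were at 1.45, 2.78 and 0.900 CPM, from 3, 6 and 2 UMIs in 285, 312 and 335 cells. The resident cells were thus near the immune levels in each animal. They were also shallow (median 5981, 5902 and 5348 UMIs, against 21774.5, 25077 and 18049 in the first set). All mesenchymal cells of 5000 to 10000 UMIs were at 5.52, 9.15 and 5.42 CPM. High ALK was not particular to the first set: mesenchymal cells with neither list were at 10.1, 36.1 and 12.1 CPM, and those with at least 2 mural markers at 14.5, 50.9 and 27.4 CPM. The first list was drawn up with results of these libraries known, so this difference is a description. At 10000 UMIs per cell ALK was expected in 8.88%, 29.0% and 15.9% of the first set and in 0.897%, 1.03% and 0% of the second. These shares were 7.88%, 27.2% and 10.3% with neither list and 12.2%, 36.8% and 22.3% with mural markers.

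Bone matrix genes marked a set found in replicate 2 alone. There 209 cells carried at least 2 markers of a bone matrix list that includes DMP1, IBSP and PHEX, genes of bone-forming cells, and ALK was at 43.3 CPM in them. Such cells numbered 0 in the other 2 animals. Those of replicate 2 were deep (median 18671 UMIs). At 10000 UMIs per cell ALK was expected in 26.9% of these cells, which come from any lineage. In the 102 of them called mesenchymal this share was 33.3%, against 24.4% of all mesenchymal cells of replicate 2. Epithelial cells with at least 2 basal keratin markers (such as KRT14, KRT17 and SPINK5, of stratified and basal epithelium) were at 8.30, 41.8 and 14.5 CPM. They were deeper than all epithelial cells (median 21031, 21004 and 14384 against 7360.5, 8797 and 7452 UMIs). At 10000 UMIs per cell their shares were 6.60%, 28.5% and 13.3%, against 6.49%, 18.4% and 13.1% of all epithelial cells. Ciliated cells, marked by FOXJ1 and TPPP3, gave 1, 2 and 2 ALK UMIs in 61, 24 and 45 cells, or 2.00, 9.19 and 4.61 CPM. They were shallow (median 4902, 5991.5 and 5423 UMIs), and epithelial cells of 5000 to 10000 UMIs were at 1.69, 5.68 and 5.15 CPM. Epithelial cells with at least 2 alveolar type 2 markers held 13, 31 and 34 ALK UMIs, or 8.44, 19.7 and 16.4 CPM, near the level of all epithelial cells. The narrower set with at least 1% of the UMIs in SFTPC, the surfactant gene of alveolar type 2 cells, gave 0 ALK UMIs in replicates 1 and 2, which allows up to 8.28 and 10.46 CPM at 3 counts. In replicate 3 such cells gave 6 ALK UMIs in 3 of 110 cells (7.11 CPM). Mesothelial-marker cells held 3, 5 and 0 ALK UMIs in 18, 47 and 108 cells, and mast-marker cells 0 in 2, 8 and 4 cells.

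The cells with 2 or more ALK UMIs were then compared with cells of the same animal with 0 ALK UMIs. Deep cells are more likely to show 2 UMIs: median totals were 48176, 31861 and 25440 UMIs, against 4771, 4849 and 7877 in all cells with 0. Each was therefore paired with the 1 nearest cell in total UMIs within 10%, which kept 31, 184 and 38 pairs (median totals 44211 against 44386, 31162 against 31130 and 25440 against 25449 UMIs). By the stricter lineage rule 83.9%, 56.0% and 63.2% of the ALK cells were mesenchymal, against 51.6%, 14.1% and 18.4% of the paired cells. Epithelial calls were 16.1%, 39.1% and 36.8% against 9.68%, 9.24% and 10.53%. Both lineages were more frequent among ALK cells in 3 of 3 animals. No ALK cell was called myeloid (0%), against 22.6%, 48.9% and 52.6% of the paired cells.

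Many of these cells carried epithelial and mesenchymal genes together. At least 2 epithelial and at least 2 mesenchymal markers each exceeded their library mean in 61.3%, 63.0% and 63.2% of the ALK cells. In the paired cells these shares were 45.2%, 13.6% and 13.2%. Among mesenchymal cells alone the shares were 69.6%, 59.4% and 78.3% against 60.9%, 67.7% and 60.9%, with no common direction. KRT14, a basal keratin, was seen in 74.2%, 81.5% and 71.1% of ALK cells against 45.2%, 63.0% and 26.3%, but its level was 587, 2107 and 942 CPM against 741, 206 and 545 CPM, lower in replicate 1. The gene did not pass (edgeR adjusted p = 0.276). Doublet scores of ALK cells had medians of 0.066, 0.061 and 0.052, against 0.031, 0.031 and 0.033 in all cells with 0 ALK UMIs, which were not matched and were far shallower, and the part of doublets was not tested.

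**Figure D3:**
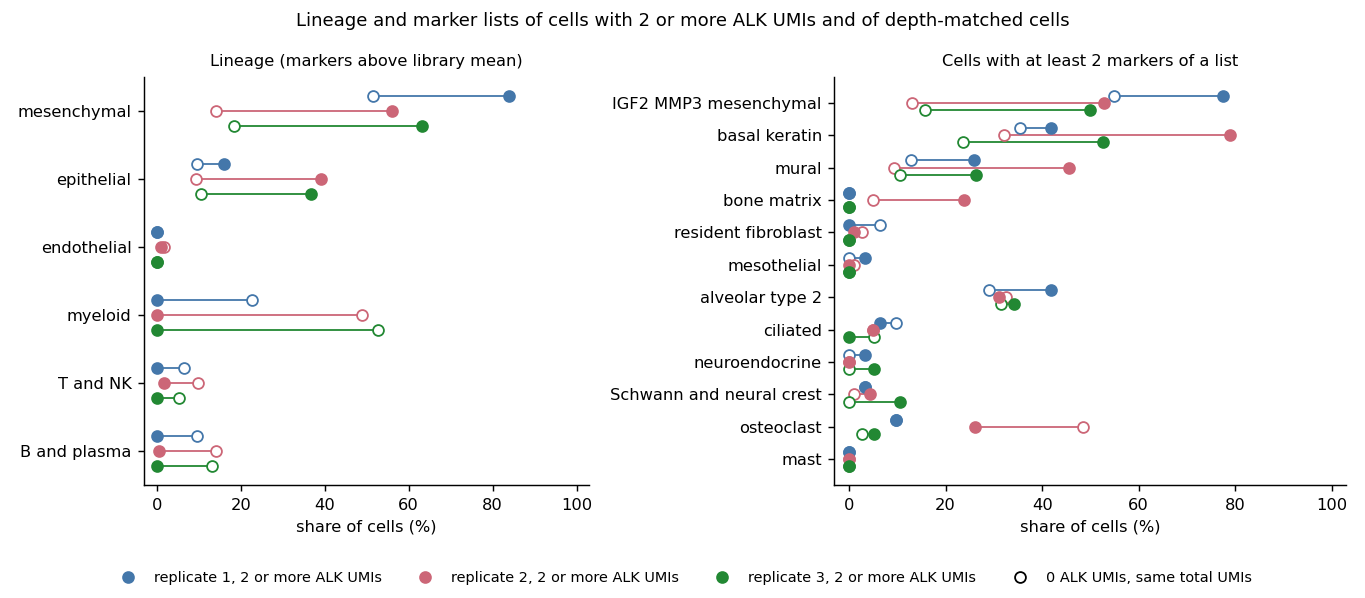
Share of cells (percent) in each lineage (left) and with at least 2 markers of a finer list (right). Filled points are cells with 2 or more ALK UMIs and open points cells with 0 ALK UMIs paired within 10% of total UMIs, 1 line per animal; mesenchymal, epithelial, basal keratin and mural-list shares lie to the right of the paired cells in 3 of 3 animals, and immune shares to the left.

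Among finer lists, at least 2 basal keratin markers were present in 41.9%, 78.8% and 52.6% of ALK cells against 35.5%, 32.1% and 23.7%. The IGF2 and MMP3 list gave 77.4%, 52.7% and 50% against 54.8%, 13.04% and 15.8%. Of its genes MMP13, a collagenase, rose (1.59 ± 0.30, edgeR adjusted p = 0.0152), whereas IGF2 and MMP3 gave 0.41 and 0.13 and did not pass. The mural list gave 25.8%, 45.7% and 26.3% against 12.9%, 9.24% and 10.53%. Of its 5 tested genes ACTG2, a smooth muscle actin, rose by 1.59 ± 0.37 and CSPG4, a proteoglycan of pericytes, by 2.75 ± 0.53 (edgeR adjusted p = 0.0308 and 0.0174). CSPG4 had 0, 97 and 6 UMIs in the ALK cells and was not tested in the pairs. The pericyte gene NOTCH3 was seen in 3.23%, 4.35% and 0% of ALK cells, and Rgs5 gave 0.18 (edgeR adjusted p = 0.794).

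The alveolar type 2 list was reached by 41.9%, 31.0% and 34.2% of ALK cells and by 29.0%, 32.6% and 31.6% of paired cells. SFTPC itself was seen in 67.7%, 57.6% and 73.7% of ALK cells and in 45.2%, 66.8% and 60.5% of paired cells. At least 2 neuroendocrine markers were found in 3.23%, 0% and 5.26% of ALK cells. SOX10, PHOX2A and HAND2, genes of Schwann and neural crest cells, were at 0 UMIs in all ALK cells. STMN2, a gene of growing axons from the same list, was seen in 74.2%, 58.7% and 71.1% of ALK cells against 41.9%, 13.6% and 26.3%. It passed in the pairs (1.28 ± 0.25, edgeR adjusted p = 0.0204) and not with the 5 nearest cells (0.96 ± 0.38, edgeR adjusted p = 0.140). Among mesenchymal cells its level did not differ beyond the error (0.00 ± 0.18 in the pairs).

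For the gene-by-gene test the planned match took the 5 nearest cells with 0 ALK UMIs. It left the ALK cells deeper in replicates 1 and 2 (median 48176 against 38349 and 31861 against 24640 UMIs), so the pairs within 10% are given beside it. Of 12107 genes 623 (5.15%) were higher and 1044 (8.62%) lower in ALK cells, by edgeR with animal as block. In the pairs 334 of 8957 (3.73%) were higher and 601 (6.71%) lower. Of the genes higher with the 5 nearest cells 267 were also called in the pairs, and of the lower genes 569. Single animals moved these counts: without replicate 3 the 5 nearest cells gave 149 higher and 517 lower genes, and without replicate 2 they gave 249 and 564.

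The genes with the largest rise included secreted matrix proteins, genes of neurons and genes of mucous epithelium. CCN5, a secreted matricellular protein, was at 177, 348 and 234 CPM in ALK cells and at 36.7, 58.0 and 45.8 CPM in the 5 nearest cells. It rose by 2.17 ± 0.14 (log2, SE; edgeR adjusted p = 0.000316), and the groups did not overlap in 3 animals. COL23A1, a membrane collagen, rose by 2.12 ± 0.27, and ALPL, an alkaline phosphatase of mineralising cells, by 2.11 ± 0.20, each positive in 3 of 3 animals. ALPL was seen in 71.0%, 69.0% and 39.5% of ALK cells against 35.5%, 14.1% and 13.2% of the paired cells.

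Genes known from neurons made up a second group among those named. SLITRK2, a synaptic adhesion protein, was at 53.5, 58.9 and 19.2 CPM against 6.90, 6.78 and 4.98 CPM and rose by 2.56 ± 0.27 (edgeR adjusted p = 0.00150). SCN3A, a voltage-gated sodium channel, rose by 2.41 ± 0.30 (edgeR adjusted p = 0.00294), with a UMI in 38.7%, 49.5% and 18.4% of ALK cells and 19.4%, 9.78% and 5.26% of paired cells. SHISA9, an auxiliary subunit of glutamate receptors, rose by 2.09 ± 0.26. All 3 were also called in the pairs. PCP4, a calmodulin-binding peptide of Purkinje cells, rose by 2.57 ± 0.32, but 349 of its 477 UMIs in replicate 3 came from 1 cell. This grouping was made after the genes were seen.

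Other large changes rested on few cells. SPP1, encoding the matrix protein osteopontin, gave the largest rise (4.08 ± 0.45, edgeR adjusted p = 0.00192), from 228, 33236 and 2412 CPM against 3.61, 3632 and 118 CPM. In replicate 3 a single cell held 2759 of its 2766 UMIs. AGR2, ANXA10 and CTSE, genes of mucous and gastric-type epithelium, rose by 3.24, 2.57 and 2.54. In replicate 1, 197 of 198 AGR2 UMIs of the paired ALK cells came from 1 cell, and in the pairs ANXA10 and CTSE did not pass (edgeR adjusted p = 0.0900 and 0.0531). LGR6, a stem cell receptor of the Wnt pathway, rose by 2.16 ± 0.32 and did not pass in the pairs (edgeR adjusted p = 0.0934).

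The genes with the largest fall were read between groups that differ in lineage: no ALK cell was called myeloid, and many paired cells were. The part of lineage in these falls was not tested. TBXAS1, thromboxane synthase, was at 4.21, 4.49 and 9.59 CPM against 251, 96.7 and 187 CPM and fell by 5.0 ± 0.28 (edgeR adjusted p = 0.000261). CYP7A1, the rate-limiting enzyme of bile acid synthesis, fell by 5.47 ± 0.33, and FABP4, a lipid carrier of macrophages and adipocytes, by 5.92 ± 0.32. TREML1, KRT79 and CRYBB1 fell too, with 5, 2 and 2 UMIs in all ALK cells together. ITIH4 and FBXO39 were at 0 UMIs in the ALK cells of each animal, against 1.82 to 3.06 and 1.92 to 2.51 CPM in the nearest cells. Of the lineage lists, 12 of 13 tested myeloid, 7 of 10 T and NK and 7 of 8 B and plasma markers were lower. Of 14 mesenchymal markers 3 (COL5A2, COL6A3 and COL5A1) were higher and 1 (FIBIN) lower, and of 12 epithelial markers 4 (Krt8, SFN, SPINT2 and EPCAM) were higher, beside 5.15% of all genes. In the pairs 1 of 9 epithelial markers, Krt8, and 4 of 11 mesenchymal markers were higher, beside 3.73% of all genes.

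Of the receptor family and its ligands little could be measured. By the stricter rule ALKAL1 had 1, 0 and 1 UMIs in epithelial cells, 0, 0 and 1 in mesenchymal cells and 0 in the other lineages, and LTK at most 7 UMIs in any lineage and animal, so neither was tested. ALKAL2 and MDK, a further proposed ligand, were not analysed here. PTPRZ1, the phosphatase receptor of the growth factor pleiotrophin, was at 23.5, 19.0 and 48.8 CPM in ALK cells against 11.3, 4.04 and 13.8 CPM. It rose by 1.5 ± 0.26 (edgeR adjusted p = 0.0113), and in the pairs it did not pass (1.40, edgeR adjusted p = 0.0659). PTN, pleiotrophin itself, gave -0.55 ± 0.20 (edgeR adjusted p = 0.119).

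Genes downstream of ALK differed only in part between the groups, which also differed in lineage. Among mesenchymal cells 0 of 11 tested adaptors and effectors and 0 of 10 MAPK output genes passed by edgeR. In that comparison only 0.286% of all genes were higher and 1.06% lower, so these counts are near the share over all genes. The part of lineage was not tested, and the values that follow are of all cells. Of 12 tested adaptors and effectors 1 rose, IRS1, an adaptor that binds the ALK kinase (1.28 ± 0.27, edgeR adjusted p = 0.0223), and 2 fell, the adaptor GRB2 and the kinase JAK3, where 5.15% of all genes were higher and 8.62% lower. In the pairs IRS1 did not pass (edgeR adjusted p = 0.0921), and 0 of 10 members were higher and 2 lower. The list median was -0.03 and that of all genes tested 0.03. Of 10 tested MAPK output genes, transcribed or induced when the pathway signals, 4 rose and 0 fell, with a median of 0.86. SPRED1, a feedback inhibitor of the pathway, was at 22.3, 19.1 and 27.9 CPM against 10.97, 5.59 and 6.70 CPM (1.37 ± 0.24, edgeR adjusted p = 0.0130). SPRED3, the AP-1 factor FOSL1 and the ETS factor ETV1 rose by 1.36, 1.49 and 0.93. In the pairs SPRED1 alone of 9 tested members passed (1.23, edgeR adjusted p = 0.0450).

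For the lists that follow, 5.15% of all genes were higher and 8.62% lower with the 5 nearest cells, and 3.73% and 6.71% in the pairs. Among 22 other receptor tyrosine kinases ERBB2 and ERBB4 rose, by 1.07 and 2.30. CSF1R, MERTK, TEK and FLT3, receptors of myeloid, endothelial and dendritic cells, fell. In the pairs ERBB2, FGFR1 and PDGFRA passed as higher (1.45, 1.21 and 1.16), each in 3 of 3 animals, and CSF1R and MERTK as lower, of 13 tested. CSF1R, FLT3, TEK and PDGFRA are also among the markers used to call lineages, and the groups differ in lineage. The list median was 0.44 with the 5 nearest cells and -0.26 in the pairs. Of the HSP90 cycle, the chaperone on which the fusion protein depends, 0 of 5 genes passed by edgeR, with 1 at an unadjusted p under 0.05. Of 7 tested progenitor genes of lung tumours SOX2, a stem cell factor, rose by 1.98 ± 0.43 and Clu by 0.97 ± 0.11. Of 11 cycle genes 0 were higher, and RRM2, a nucleotide synthesis enzyme, was lower (-1.15 ± 0.24). In the pairs UBE2C and CDK1 were lower as well. RB1, one of the genes targeted by the reagents, gave -0.43 ± 0.29 (edgeR adjusted p = 0.383), and its count does not show whether a copy was edited.

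**Figure D4:**
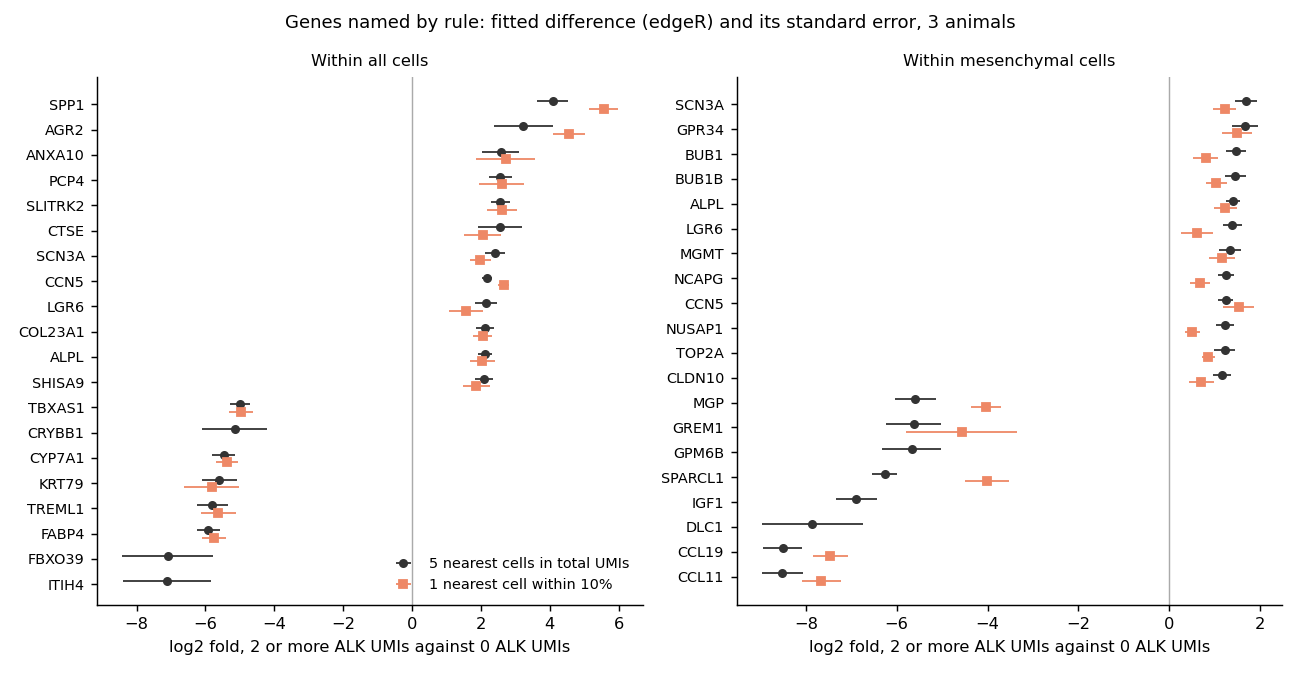
Fitted log2 fold of the genes named by rule, with standard errors, for all cells (left) and mesenchymal cells (right). Circles use the 5 nearest cells in total UMIs and squares the 1 nearest within 10%, missing where the gene was not tested; rises among mesenchymal cells are smaller than among all cells, and fitted falls of genes at 0 UMIs, such as ITIH4 and FBXO39, depend on the prior count.

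With both sides taken from the mesenchymal lineage far fewer genes differed. The 5 nearest cells gave 31 of 10858 genes higher (0.286%) and 115 lower (1.06%), but in replicate 2 they were much shallower than the ALK cells (median 9301 against 30239 UMIs). In the pairs within 10%, 23, 96 and 23 per animal, 8 of 7845 genes were higher (0.102%) and 37 lower (0.472%). Without replicate 2 the 5 nearest cells gave 4 higher and 19 lower, and without the animal block 0 and 0 genes passed by edgeR, with 190 and 302 at an unadjusted p under 0.05. DESeq2 with the block gave 31 and 97.

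The lower genes named by rule included chemokines, matrix proteins and growth factors. CCL11, the chemokine eotaxin, had 1, 1 and 0 UMIs in the ALK cells against 41.4, 201 and 66.5 CPM, and CCL19, a T cell zone chemokine, 1, 3 and 0 UMIs against 41.2, 424 and 19.1 CPM. In the pairs both stayed lower (CCL11 -7.66 and CCL19 -7.46, edgeR adjusted p = 0.000125 and 0.000183). MGP, the matrix Gla protein, was at 8.01, 24.4 and 8.30 CPM against 78.1, 1741 and 431 CPM and fell by 5.59 ± 0.45 (edgeR adjusted p = 0.00217; in the pairs it fell by 4.03, edgeR adjusted p = 0.00144). With the 5 nearest cells SPARCL1, a matrix glycoprotein, fell by 6.26 ± 0.27 and IGF1, a growth factor with 0, 2 and 0 UMIs in the ALK cells, by 6.89 ± 0.45. Fitted folds of genes with so few UMIs depend on the prior count. In replicate 2 the 5 nearest cells were much shallower (median 9301 against 30239 UMIs). In the pairs 5 of the genes named by rule, higher and lower together, still passed and 12 did not. GREM1, a BMP antagonist, did not pass in the pairs (edgeR adjusted p = 0.261). FIBIN, SCARA5 and MFAP4 of the resident list fell too, 3 of 3 tested, FIBIN also in the pairs. Mesothelial markers were lower as well, 2 of 3 tested: MSLN fell by 4.88 and PRG4 by 6.0. In the pairs 1 of 2 tested mesothelial markers was lower, PRG4 (edgeR adjusted p = 0.0286).

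Several of the higher genes named by rule are known from mitosis. TOP2A, topoisomerase 2 alpha, was at 225, 458 and 536 CPM in ALK cells against 136, 117 and 216 CPM (1.22 ± 0.23, edgeR adjusted p = 0.0493), and it passed in the pairs (0.87 ± 0.14, edgeR adjusted p = 0.0331). BUB1, BUB1B, NCAPG and NUSAP1, of the spindle checkpoint, condensin and spindle, rose by 1.47, 1.45, 1.25 and 1.22 with the 5 nearest cells. None of these 4 passed in the pairs (edgeR adjusted p from 0.134 to 0.407). TOP2A was seen in 47.8%, 58.3% and 34.8% of paired ALK cells against 52.2%, 39.6% and 30.4%, lower in replicate 1. In replicate 3, 1 cell held 314 of the 383 TOP2A UMIs of the paired ALK cells. SCN3A, ALPL and CCN5 rose here too (1.70, 1.40 and 1.24) and kept their sign in the pairs in 3 of 3 animals without passing (edgeR adjusted p = 0.111, 0.0964 and 0.145). The bone matrix genes DMP1 and IBSP passed as higher, but their UMIs came from replicate 2.

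Of the ALK family, adaptor, receptor kinase, HSP90, MAPK output and progenitor lists 0 members passed among mesenchymal cells by edgeR, where 0, 0, 3, 1, 2 and 2 members, in either direction, had an unadjusted p under 0.05. Over all genes tested there 0.286% were higher and 1.06% lower. Of 11 cycle genes TOP2A and CENPF were higher (1.22 and 1.03), with a list median of 0.58 beside -0.03 over all genes tested. With the pairs that median was 0.12.

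The order of ALK over the 18 sums of 6 lineages in 3 animals was most like that of 6 genes out of 6593 with a mean of at least 5 CPM. These were DZIP1, a cilium base protein (Spearman's rho 0.96), COL5A2, a fibrillar collagen (0.96), EPHX3, an epoxide hydrolase (0.95), ALPL (0.94), NKX2-1, the lung lineage factor (0.93), and IRX5, a homeobox factor (0.93). The 18 sums share animals, libraries and depth, so no p is given. COL5A2 is among the markers that call the mesenchymal lineage, so its order was partly set by the calls. Lineages were called here from markers present, the rule by which 47 cells with 2 or more ALK UMIs in replicate 2 were called myeloid. NKX2-1 was at 66.2, 72.6 and 59.9 CPM in mesenchymal cells and at 139, 150 and 155 CPM in epithelial cells, against 1.10 to 8.10 CPM in the immune lineages. In ALK cells against the 5 nearest cells it rose by 1.10 ± 0.21 (edgeR adjusted p = 0.0178), and in 3 of 3 animals. Among mesenchymal cells it gave 0.04 ± 0.21 (edgeR adjusted p = 0.973). COL5A2, DZIP1 and IRX5 also rose in all cells (1.39, 1.44 and 1.45), and of the 6 genes only ALPL passed among mesenchymal cells.

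**Figure D5:**
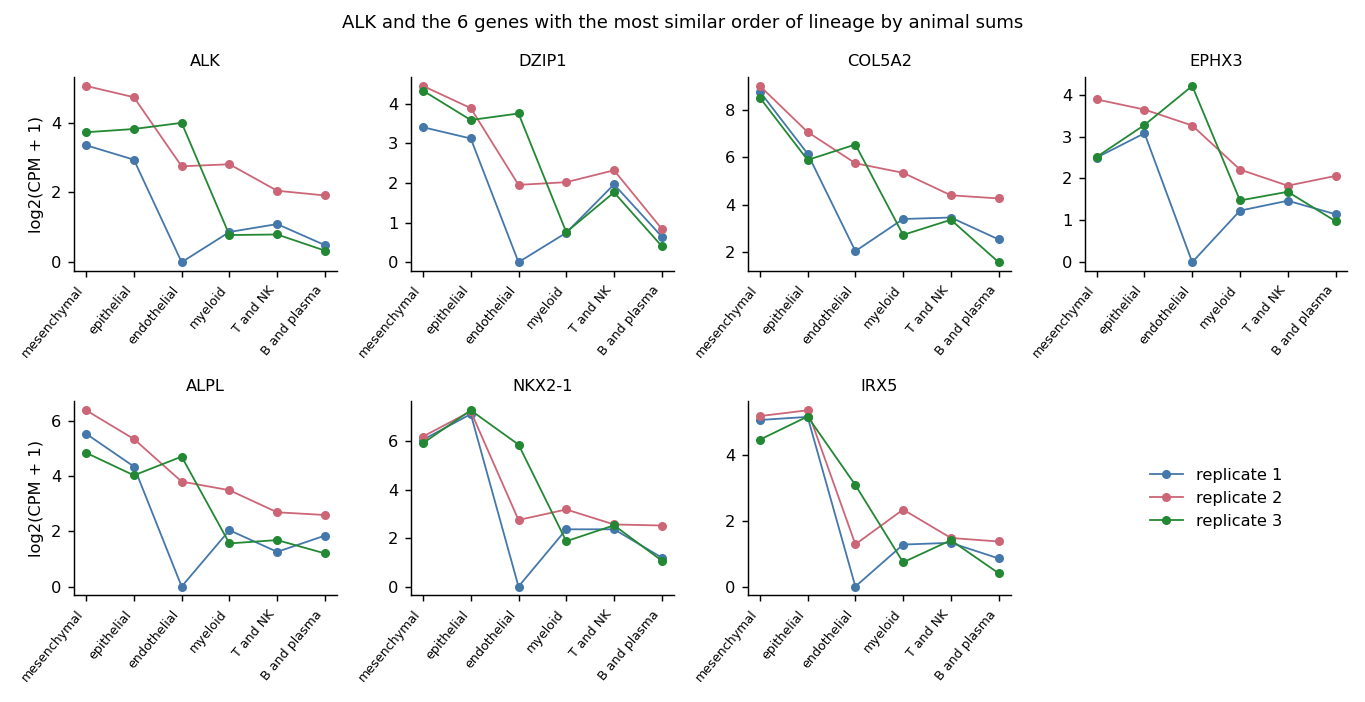
Level (log2 of CPM + 1) of ALK and of the 6 genes most like it in rank order, in 6 lineages of 3 animals called from markers present. Lines join the lineages of an animal; mesenchymal and epithelial cells are high and immune cells low in each panel, and endothelial values differ between animals as those of ALK do.

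At a single depth, 20000 to 40000 UMIs, ALK was also read in epithelial and mesenchymal cells (stricter rule) above and not above the library mean of a gene. The 26 genes were chosen after other results were known, so these are descriptions. Cells above the mean of MMP13 had 15.0, 42.1 and 20.4 CPM of ALK against 4.61, 31.2 and 16.8 CPM, and those above the mean of SERPINE2, a protease inhibitor, 11.8, 45.6 and 20.9 CPM against 6.35, 24.3 and 14.8 CPM. For both genes ALK was higher above the mean in 3 of 3 animals. It was so for KRT14, ACTG2, STMN2, GAL, SPP1 and ALPL as well. For KRT14 the values were 10.9, 46.7 and 26.6 CPM against 9.08, 32.8 and 14.1 CPM. MGP went the other way, with 8.40, 6.0 and 8.12 CPM of ALK above its mean against 9.54, 39.3 and 19.4 CPM below, from 4, 5 and 5 ALK UMIs. Krt8, an epithelial keratin, was also lower above its mean in 3 of 3 animals, with 7.55, 21.3 and 18.0 CPM of ALK against 9.90, 39.8 and 18.3 CPM. For MFAP4, IGF1 and CCL11 ALK was lower above the mean in 3 of 3 animals, from few ALK UMIs. The remaining genes, IGF2 and EPCAM among them, gave no common direction. None of these directions was tested.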

How the data were processed

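Lung tumours of 3 naked mole-rats were measured, 1 droplet library per animal. The authors deposited raw UMI counts per gene and barcode, made with Cell Ranger 7.1.0 per the file headers and 8.0.0 per the submitters' processing notes. For the genome build and annotation: not given in the sources used here.

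Cells with at least 1000 UMIs, 500 genes and under 20% mitochondrial UMIs were kept (25044), and 445 with a Scrublet score of at least 0.2 were removed as doublets (scanpy 1.11.5, Python 3.11.15). The automatic Scrublet threshold was not used. Counts were summed by animal and cell group and tested with edgeR 4.0.16 (quasi-likelihood, TMM, R 4.3.3), with animal as block because both groups come from the same animals, and Benjamini-Hochberg adjustment over all genes at 0.05. DESeq2 1.42.0 was an alternative. Tested on simulated data for cells with ALK in all lineages (12031 genes), 39% of log2 changes of 1 and 85.9% of changes of 2 were recovered. For mesenchymal cells (10938 genes) these shares were 29.6% and 89.8%. Intervals cover counting error only. Separate animals were the replicates.

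Genes named are the 12 highest and 8 lowest log2 folds past the threshold with a shared sign and at least 10 UMIs in the higher group of each animal, list members by lowest p, and the 6 genes most like ALK. Other genes were chosen after their values were seen. ALK and the lists were chosen with earlier results of these data known. The stricter lineage rule and the pairs within 10% were added after seeing the data.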

Additional observations from a re-analysis of the deposited data

How the results depend on the processing

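The mesenchymal and epithelial differences in ALK from immune cells passed under each alternative run (log2 2.90 to 3.65 and 2.35 to 3.39). Endothelial against immune cells was 1.93 with markers above the library mean, 1.56 with DESeq2 (both passed, adjusted p = 0.00776 and 0.0395, against 0.225), -0.12 in cells of 5000 to 40000 UMIs, and between -0.15 and 2.68 when 1 animal was left out. Myeloid against T and NK cells turned to -0.48 with markers above the library mean and -0.16 without replicate 2 (up to 0.74 without replicate 1), and endothelial against myeloid cells to -0.40 at 5000 to 40000 UMIs and -0.46 without replicate 3 (up to 2.82 without replicate 2). Mean detection thinned to 5000 UMIs was 6.29% (mesenchymal), 4.90% (epithelial), 0.689% (myeloid) and 0.542% (T and NK). Thinned to 10000 it was 14.5%, 12.6%, 1.76% and 1.70% in these, 3.70% in endothelial and 0.681% in B and plasma cells.

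Counts of genes higher and lower with 2 or more ALK UMIs (623 and 1044) were 168 and 588 at a mitochondrial limit of 10%, 2018 and 2110 from 1 ALK UMI, 219 and 540 with 1 nearest cell, 334 and 601 within 10%, and 1835 and 2551 unmatched. Without a filter on low counts 1571 were lower. Without the replicate block they were 74 and 409. Leaving out 1 animal gave 149 to 773 higher and 517 to 1113 lower. Among mesenchymal cells (31 and 115) they were 286 and 591 from 1 ALK UMI, 9 and 49 with 1 nearest cell, 8 and 37 within 10%, 16 and 55 within 10% with markers above the library mean, 287 and 647 unmatched, 194 and 604 without a filter, and 0 and 0 without the replicate block. Leaving out 1 animal gave 4 to 40 higher and 19 to 215 lower, the extremes of the lower genes being without replicates 2 and 1. The cause was not tested. A threshold of 3 ALK UMIs, and the mitochondrial limit of 10% among mesenchymal cells, could not be fitted, since fewer than 2 animals kept 20 cells. The few endothelial cells and ALK UMIs limit every endothelial value.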
